A study of Mus musculus with 6 samples.

Results

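The testis-specific serine kinases are a small family of protein kinases made in developing male germ cells, and they are described here together with Camk4, a calmodulin-dependent kinase of the same broad kinase group. The genes were taken by name, as Tssk1 to Tssk6 and Camk4, and every probe of the array that carries any of these 7 names was used: 11 of 41174 gene probes, or 7 of the array's 27376 gene names. Testes of 3 Prss54KO mice and 3 WT mice were compared, all males aged 6 to 8 weeks on a mixed 129Sv and C57BL/6 background. Prss54 encodes a member of the serine protease family, and the study asked which testis transcripts differ when it is disrupted. Total RNA was hybridised to 1-colour Agilent mouse arrays, 1 array per mouse. The labels name neither the deleted part of Prss54 nor the litters, so p-values measure the spread between these animals only.

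Testis-specific serine kinases appear after meiosis, when round spermatids turn into elongated sperm, a period in which nuclear chromatin is repacked with protamines and the flagellum is built. They phosphorylate proteins of the spermatid and depend on chaperones for their activity. In mice, males without both Tssk1 and Tssk2, or without Tssk6, are infertile. Camk4 is switched on by calcium-loaded calmodulin and by an upstream kinase, Camkk1 or Camkk2, and is best known from neurons and T cells. In germ cells its gene also yields calspermin, a short calmodulin-binding protein without the kinase domain, from a promoter inside the gene.

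Each probe is a 60-base oligonucleotide, and its position is given on the mm9 build, per the file headers. The probes of 4 sets of values that follow are shown first: both probes named Tssk1, because they did not behave alike, and those of Tssk6 and Tssk5, because these genes went opposite ways on the same array. Capitals mark the longest run that a probe shares, on the same strand, with a probe of another of the 7 genes.
Tssk1 (A_51_P426347, for NM_009435, chr16:17895321-17895380, plus strand): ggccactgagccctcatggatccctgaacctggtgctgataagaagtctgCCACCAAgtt
Tssk1 (A_52_P665682, for the cDNA AK029655, chr16:17897935-17897994, plus strand): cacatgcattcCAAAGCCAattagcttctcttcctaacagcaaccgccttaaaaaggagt
Tssk6 (A_51_P337740, for NM_032004, chr8:72426918-72426977, plus strand): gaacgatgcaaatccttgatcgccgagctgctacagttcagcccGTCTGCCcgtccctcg
Tssk5 (A_51_P162313, for NM_183099, chr15:76202685-76202833, minus strand): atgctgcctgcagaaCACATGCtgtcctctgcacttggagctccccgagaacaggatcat
Among the 11 probes the longest such run was between 6 and 8 bases of 60, and GC content lay between 35.0% and 60.0%. The Tssk5 probe and the Tssk4 probe for NM_001253889 are placed over 149 and 326 bases, more than their own length. No mm9 gene annotation was used here, so exon, intron or untranslated region is not given.

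On the arrays, 66.2% to 74.8% of gene spots were well above background and 0 were saturated. The arrays lay on 3 slides: Prss54KO replicates 1 and 2 with WT replicate 3 on slide 2, Prss54KO replicate 3 on slide 1, and WT replicates 1 and 2 on slide 3. The Prss54 probe gave processed signals of 7381, 9466 and 8416 in Prss54KO replicates 1, 2 and 3, against 22677, 24153 and 26120 in the WT replicates. It was 2.96-fold lower in Prss54KO, with limma's adjusted p at 0.116, so it did not pass the threshold of 0.05 either. All 20 genes tested in the list of haploid spermatid markers, among them the protamine genes Prm1 and Prm2 and the transition protein genes Tnp1 and Tnp2, were well above background on all 6 arrays.

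No gene of the family, nor Camk4, showed a difference between genotypes larger than the spread between mice. With limma, 0 of the 11 probes passed an adjusted p of 0.05, against 0 (0%) of the 28912 probes tested, and 0 passed an unadjusted p of 0.05, against 929 (3.21%). Prss54KO and WT arrays overlapped for all 11 probes, whereas 7.89% of all probes tested showed no overlap. The adjusted p was 0.9998 for each of the 11 probes. By the brightest probe of each gene, 4 genes had a higher mean in Prss54KO and 3 a lower mean, with a median difference of 0.023 against 0.0071 for all probes tested; 53.4% of all probes had a higher mean in Prss54KO. The largest of these 7 differences was 0.11. RNA came from whole testis, so a signal that is lower because of fewer cells of a type or because of less RNA per cell cannot be told apart. Every difference given here is the Prss54KO level minus the WT level, in log2 units. A level is the log2 of a probe's signal (fluorescence after background correction, in arbitrary units) scaled to the 75th percentile of its array. With 3 mice against 3, the smallest p an exact permutation test can give is 0.1.

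**Figure D1:**
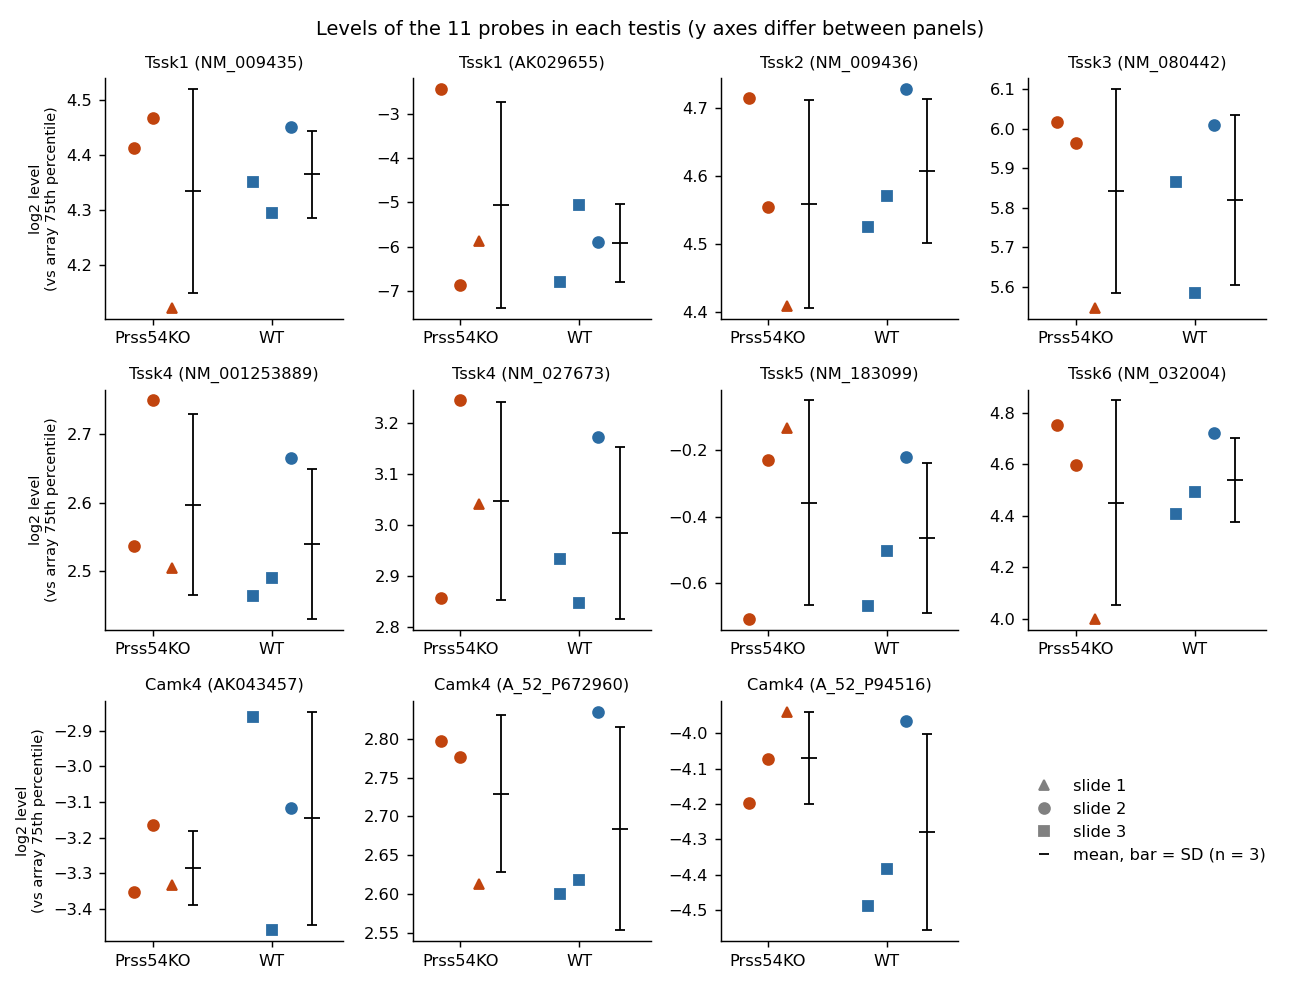
Level of each of the 11 probes in each testis, in log2 units after scaling to the 75th percentile of the array, with Prss54KO in red on the left and WT in blue on the right of each panel. Symbols give the slide and black bars the mean and SD of 3 mice; in every panel the points of the genotypes overlap, and for Tssk1, Tssk2, Tssk3 and Tssk6 the lowest point on the main probe is Prss54KO replicate 3.

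Tssk1 and Tssk2 encode closely related kinases that phosphorylate the spermatid protein Tsks, and they sit side by side: their main probes lie 4669 bases apart on chromosome 16 (mm9). The main Tssk1 probe had signals of 35583, 36590 and 29287 in Prss54KO replicates 1, 2 and 3, against 32949, 31121 and 37321 in WT replicates 1, 2 and 3. The Tssk2 probe (A_51_P402044, chr16:17900050-17900109) had 43851, 38877 and 35743 in Prss54KO, against 37198, 37701 and 45213 in WT. In both genes the lowest signal was that of Prss54KO replicate 3 and the WT mice lay inside or close to the Prss54KO range. The normalized Tssk1 level was 4.33 ± 0.19 in Prss54KO and 4.36 ± 0.080 in WT (SD, n = 3 each), a difference of -0.031 (SE 0.10, exact permutation p 0.9). The Tssk2 level was 4.56 ± 0.15 in Prss54KO and 4.61 ± 0.11 in WT (SD, n = 3 each), a difference of -0.048 (SE 0.098, exact permutation p 0.7). Read as folds, the 95% intervals ran from 0.82 to 1.17 for Tssk1 and from 0.82 to 1.14 for Tssk2.

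A second probe carries the name Tssk1 but targets the cDNA AK029655, 2554 bases beyond the main Tssk1 probe and 2055 bases before the Tssk2 probe. It was dim: 306, 14.1 and 28.8 in Prss54KO replicates 1, 2 and 3, against 14.4, 47.8 and 28.7 in the WT replicates. It exceeded background clearly on 2 of 3 arrays in Prss54KO and 1 of 3 in WT, the fewest arrays that the filter on dim probes allows, and Prss54KO replicate 1 alone held the high value. The difference was 0.86 with a 95% interval from -1.95 to 3.66 (exact permutation p 0.8), and without Prss54KO replicate 1 it was -0.45. The main Tssk1 probe showed no such peak in that mouse, and the 2 probes correlated at r = 0.048 over the 6 arrays.

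Tssk6, also called Sstk, is needed in mice for proper packing of sperm chromatin and is activated by the co-chaperone Tsacc together with heat shock protein 90. Its probe gave 45019, 40098 and 26908 in Prss54KO replicates 1, 2 and 3, against 34275, 35701 and 44981 in the WT replicates. Prss54KO replicate 1 was the highest of the 6 mice and Prss54KO replicate 3 the lowest. The level was 4.45 ± 0.40 in Prss54KO and 4.54 ± 0.16 in WT (SD, n = 3 each), a difference of -0.089 (SE 0.21, exact permutation p 0.9) with a fold interval of 0.67 to 1.33. Without Prss54KO replicate 3 the difference was 0.14. Tssk6 lies on chromosome 8, as Prss54 does, with 25.7 Mb between their probes (mm9).

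Tssk3 is a spermatid kinase that the phosphoinositide-dependent kinase Pdpk1 phosphorylates and activates. Its probe (A_51_P183253, chr4:129166305-129166364, minus strand) gave 108222, 103192 and 78675 in Prss54KO, against 94175, 76205 and 109861 in WT. The lowest of either genotype were alike, at Prss54KO replicate 3 and WT replicate 2. The level was 5.84 ± 0.26 in Prss54KO and 5.82 ± 0.21 in WT (SD, n = 3 each), a difference of 0.023 (SE 0.16, exact permutation p 0.9) with a fold interval of 0.77 to 1.34.

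Tssk4 phosphorylates Odf2, a protein of the outer dense fibres of the sperm tail. It had 2 probes on chromosome 14, which gave differences of like size. The probe for NM_027673 (A_51_P164788, chr14:56271292-56271351) had 12096, 15675 and 13851 in Prss54KO replicates 1, 2 and 3, against 12337, 11415 and 15385 in the WT replicates. Its level was 3.05 ± 0.19 in Prss54KO and 2.98 ± 0.17 in WT (SD, n = 3 each), a difference of 0.063 (SE 0.13, exact permutation p 0.7). The probe for the transcript variant NM_001253889 (A_51_P164787, chr14:56270634-56270959) had 9699, 11130 and 9550 in Prss54KO, against 8916, 8911 and 10830 in WT. Its difference was 0.058 (SE 0.093, exact permutation p 0.5), and the probes correlated at r = 0.87 over the 6 arrays. Prss54KO replicate 2 and WT replicate 3 were the 2 highest mice for both.

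Tssk5, a further member of the family, had the largest difference among the brightest probes. Its probe gave 1023, 1410 and 1532 in Prss54KO replicates 1, 2 and 3, against 1017, 1119 and 1464 in the WT replicates. Each genotype thus held both low and high mice. The level was -0.36 ± 0.31 in Prss54KO and -0.46 ± 0.23 in WT (SD, n = 3 each), a difference of 0.11 (SE 0.18, exact permutation p 0.8) with a fold interval of 0.79 to 1.47. Within slide 2, which holds 1 WT and 2 Prss54KO mice, the difference was -0.25 (SE 0.25).

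Camk4 was read by 3 probes on chromosome 18. The brightest (A_52_P672960, for NM_009793) gave 11615, 11343 and 10290 in Prss54KO, against 9796, 9743 and 12181 in WT. WT replicate 3 was the highest mouse and the other 2 WT mice the lowest, with all Prss54KO signals between them; after scaling, Prss54KO replicate 3 lay between the 2 low WT mice. The level was 2.73 ± 0.10 in Prss54KO and 2.68 ± 0.13 in WT (SD, n = 3 each), a difference of 0.045 (SE 0.090, exact permutation p 0.9) with a fold interval of 0.89 to 1.20. The files place this probe and a dimmer one (A_52_P94516) within the same kilobase of the gene. Whether they read the kinase or calspermin mRNA cannot be told from the files.

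The dimmer Camk4 probes gave other values. A_52_P94516 had signals of 91.1, 98.3 and 109.8 in Prss54KO, against 71.9, 76.0 and 109.3 in WT, a difference of 0.21 (SE 0.15, exact permutation p 0.3). WT replicates 1 and 2, both on slide 3, were the 2 lowest, and within slide 2 alone the difference was -0.17 (SE 0.11). The probe for the cDNA AK043457 (A_52_P191278) had 163.3, 184.5 and 166.8 in Prss54KO, against 222.4, 144.2 and 196.8 in WT, a difference of -0.14 (SE 0.15, exact permutation p 0.6). WT replicates 1 and 2 were the highest and the lowest mouse for this probe. Leaving out a single WT mouse brought a dim Camk4 probe past an unadjusted limma p of 0.05: A_52_P94516 without WT replicate 3 (difference 0.37, adjusted p 0.595) and A_52_P191278 without WT replicate 2 (difference -0.30, adjusted p 0.9999). In each fit this was 1 of the 11 member probes. Over all 28912 probes, 1796 did so without WT replicate 3, against 929 with all 6 arrays. With any 1 array left out the count lay between 579 and 1796.

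**Figure D2:**
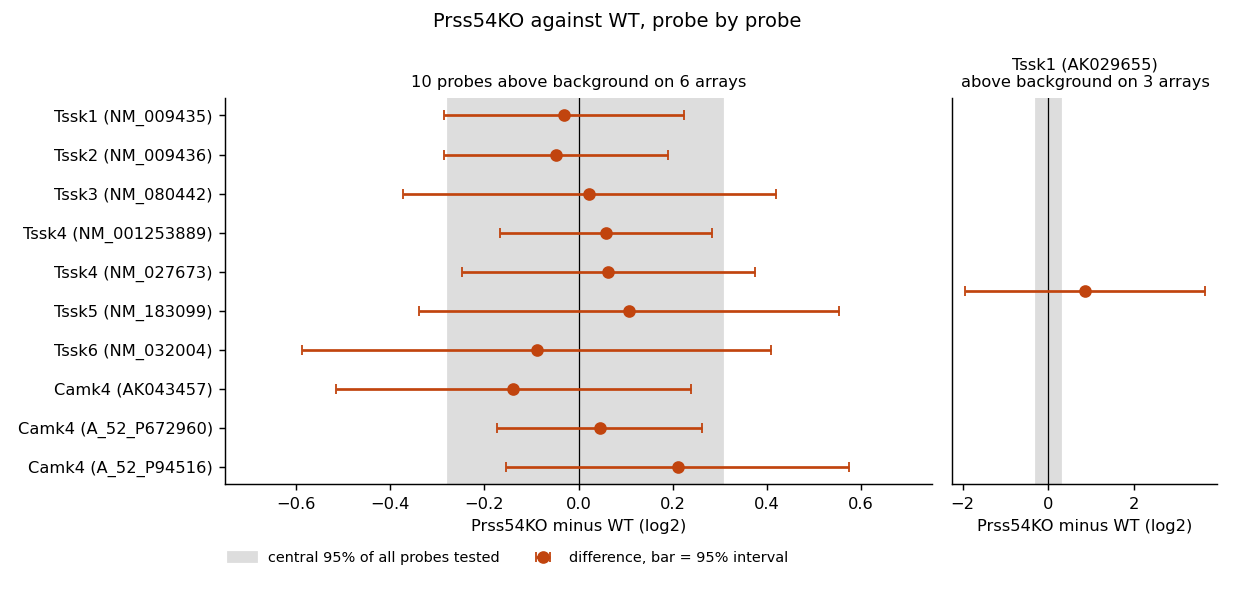
Difference of each probe between Prss54KO and WT (log2 units, positive where higher in Prss54KO), with its 95% interval from limma; the grey band holds the central 95% of all 28912 probes tested, -0.28 to 0.31. All 11 intervals include 0, and the dim Tssk1 probe for AK029655 has its own axis because its interval runs from -1.95 to 3.66.

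The kinases moved more between arrays of 1 genotype than between genotypes. Relative to the WT mean, the brightest probes of all 7 genes were higher in WT replicate 3 (median deviation 0.18), while 1 of 7 was higher in WT replicate 1 (median -0.083) and 0 in WT replicate 2 (median -0.066). In Prss54KO replicates 1 and 2, which shared slide 2 with WT replicate 3, 5 and 6 of the 7 were above the WT mean (medians 0.11 and 0.10). In Prss54KO replicate 3 it was 2 of 7 (median -0.20), from Tssk6 at -0.54 to Tssk5 at 0.33. The median of all probes tested deviated by at most 0.021 on any array. The 20 spermatid markers had median deviations of 0.040, 0.075 and -0.14 in Prss54KO replicates 1, 2 and 3, against -0.035, -0.036 and 0.068 in the WT replicates. They did not move as 1 block: in Prss54KO replicate 3, 15 of the 20 were below their WT mean, from Spem1 at -0.54, Oaz3 at -0.35 and Akap4 at -0.35 upward, while Spaca1 (0.23), Tekt4 (0.090), Acr (0.066), Tnp1 (0.032) and Prm2 (0.028) were above it. The 15 below it also include Klk1b24 (-0.32), a kallikrein gene of Leydig cells that the list of 20 holds. The part of the spermatid markers and of the slides in the kinases' shifts was not tested.

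**Figure D3:**
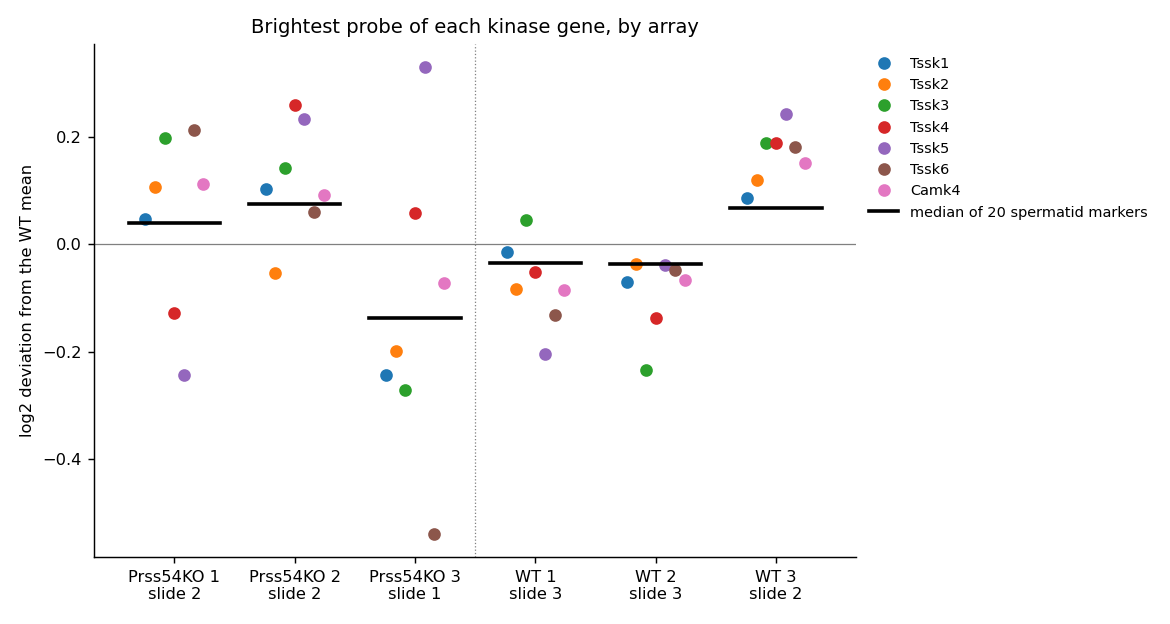
Deviation of the brightest probe of each of the 7 genes from its WT mean on each array (log2, coloured points). The black bar is the median of the 20 genes in the spermatid marker list, which includes the Leydig cell gene Klk1b24. Prss54KO arrays are on the left and the slide is given below each array. All points of WT replicate 3 lie above 0, and those of Prss54KO replicate 3 run from -0.54 for Tssk6 to 0.33 for Tssk5.

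The genes did not all follow a single pattern over the 6 arrays. Of the 21 pairs among the 7 genes, 16 had a positive Pearson correlation, and the values ran from -0.38 to 0.93 with a median of 0.76. Tssk6 with Tssk2 (r = 0.93, Spearman rho 0.89) and with Tssk1 (r = 0.92, rho 0.71), and Tssk1 with Tssk3 (r = 0.90, rho 0.77), were the 3 highest. Tssk5 ran against Tssk6 (r = -0.38, rho -0.43), against Tssk2 (r = -0.33, rho -0.26) and with Tssk4 (r = 0.79, rho 0.60). These correlations describe 6 arrays on 3 slides and are not independent of the array shifts just given.

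The other genes most like each kinase over the same 6 arrays were picked from 15150 named genes as the 2 with the highest Pearson r, which lay between 0.990 and 0.9996. For Tssk6 they were Gstcd (r = 0.9996) and Dydc2 (r = 0.998), for Tssk1 Tmem247 (r = 0.998) and Aldh8a1 (r = 0.997), and for Tssk2 Bloc1s1 and Pygl (r = 0.996 each). For Tssk3 they were Tmem53 (r = 0.996) and Clip3 (r = 0.994), for Tssk4 Tmem8b (r = 0.991) and Nit2 (r = 0.990), for Tssk5 Mybbp1a (r = 0.994) and Adtrp (r = 0.992), and for Camk4 Dcaf12 and Prx (r = 0.993 each). Spearman rho over these 14 genes ran from 0.77 to 1, with Dcaf12 (0.77) and Prx (0.83) lowest. Picking the top 2 of 15150 genes over 6 arrays favours high r in advance, and the array shifts enter it. A shared role was not tested.

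Genes around the kinases were read in 4 lists, each gene by its brightest probe. The first 2 hold partners and substrates, and the calmodulin pathway. The other 2 hold AMPK-related kinases and other germ cell kinases, which are not partners by their listing. Of 76 genes tested, 0 passed limma's adjusted threshold in either direction, and 2 (2.63%) had an unadjusted p under 0.05, against 3.21% of all probes. Genotypes did not overlap in 6 of the 76 (7.89%), against 7.89% of all probes.

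Among the 12 partners and substrates of the kinases, 7 had a higher mean in Prss54KO and 5 a lower one, with a median difference of 0.011. Tsks, the substrate of Tssk1 and Tssk2, had signals of 123857, 131665 and 103798 in Prss54KO, against 120436, 110186 and 130484 in WT, a difference of -0.040 (SE 0.10). Tsacc, the co-chaperone that activates Tssk6, differed by -0.0075 (SE 0.11). Both were lowest in Prss54KO replicate 3, as Tssk6 was. The sperm tail protein gene Odf2 differed by 0.037 (SE 0.074) by its brightest probe, but its 4 probes averaged -0.13, so its direction depends on the probe. Spag16, a Tssk2 substrate of the axoneme, differed by 0.024 (SE 0.051), and its 3 probes averaged -0.00017. The members with the smallest p were the chaperone gene Hsp90aa1 at 0.095 (SE 0.089) and Pdpk1 at -0.096 (SE 0.12), whose 3 probes averaged 0.0060.

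The calmodulin pathway around Camk4 held the smallest p of all 4 lists. Camkk1, the kinase that phosphorylates and activates Camk4, had signals of 402, 427 and 393 in Prss54KO replicates 1, 2 and 3, against 451, 455 and 495 in the WT replicates. Its highest Prss54KO signal was thus under its lowest WT signal, and such a separation was present for 3.56% of all probes tested. The difference was -0.23 (SE 0.059, 95% interval -0.37 to -0.083), with limma's unadjusted p at 0.00817 and its adjusted p at 0.9998, so it did not pass. Within slide 2, which holds 1 WT and 2 Prss54KO mice, the difference was -0.22. Over the 18 alternatives, which use the same 6 arrays or a part of them, it ran from -0.27 to -0.19. The related kinase gene Camkk2 differed by 0.031 (SE 0.055), the calmodulin gene Calm3 by 0.15 (SE 0.084; its 3 probes averaged 0.061), and Crem, a transcription factor of spermatids, by 0.057 (SE 0.075). The list's 21 tested genes had a median of 0.0045, with 11 higher and 10 lower means in Prss54KO.

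The list of AMPK-related kinases, relatives of the family, had a median of 0.0094 over 19 tested genes, with 11 higher and 8 lower means in Prss54KO. These 19 also include genes outside that class: Stk11, Strada, Stradb, Cab39 and Cab39l. Snrk at 0.086 (SE 0.050) and Nuak1 at 0.14 (SE 0.10) had the smallest p in this list. The list of 24 other germ cell kinases had a median of 0.055, with 16 higher and 8 lower means; it also holds Pkdrej, a sperm membrane protein that is not a kinase. Its mitotic and meiotic kinase Plk1 had signals of 32017, 30800 and 33117 in Prss54KO, against 26326, 29000 and 29056 in WT. All its Prss54KO signals were above its WT signals, a separation seen in 4.32% of all probes, and the difference of 0.16 (SE 0.063) had a limma adjusted p of 0.9998. Stk31, a germ cell kinase-like protein gene, differed by -0.090 (SE 0.051).

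**Figure D4:**
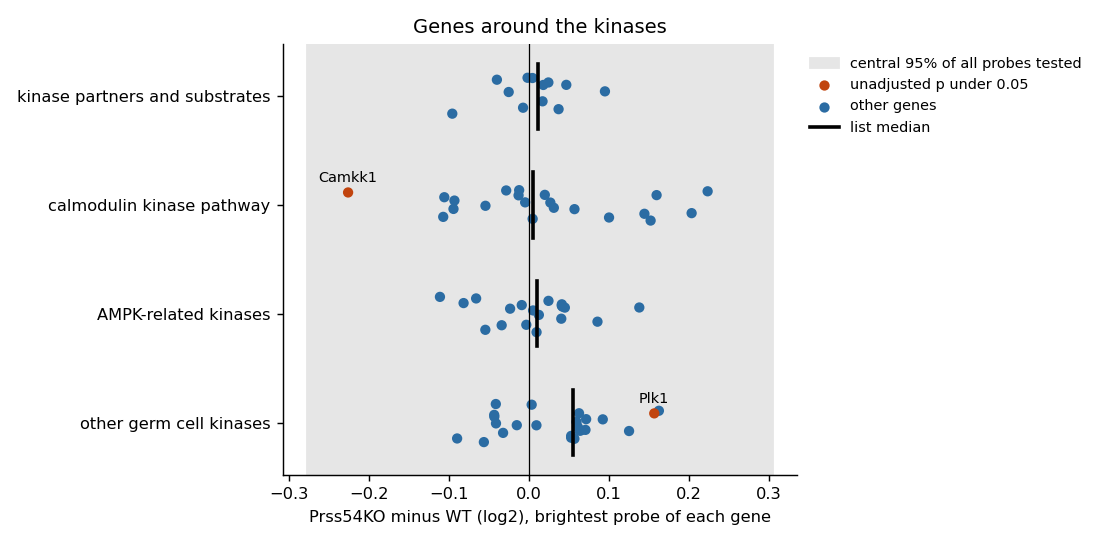
Difference of each tested gene in the 4 lists around the kinases, Prss54KO minus WT in log2 units by the gene's brightest probe, with black bars for list medians and a grey band for the central 95% of all probes tested. Camkk1 at -0.23 and Plk1 at 0.16 are the 2 genes with an unadjusted p under 0.05 (red).

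Markers of the cells that make up the testis had list medians from -0.059 to 0.024, against 0.0071 for all probes, and 0 of their genes passed limma's adjusted threshold. Medians were -0.0095 for 20 haploid spermatid markers (Tekt4 at 0.10 and Acr at 0.066 had the smallest p) and 0.0041 for 15 meiotic spermatocyte markers (Ccna1 at 0.13 and Dmc1 at -0.091). The spermatid list also holds Klk1b24, a kallikrein gene of Leydig cells, at -0.23. Spermatogonial markers had a median of -0.0045 over 9 genes (Stra8 at -0.16 and Uchl1 at -0.071). Sertoli cell markers had 0.024 over 11 (Fshr at -0.15 and Amh at 0.22). Amh was dim, with signals from 28.1 to 59.8, and was not well above background on every array. Leydig cell markers had -0.059 over 8, with 5 of 8 means lower in Prss54KO (Star at -0.58 and Hsd3b1 at -0.091). These values are by the brightest probe of each gene, and some depend on the probe. Cyp11a1 was at -0.044 by its brightest probe, but its 3 probes averaged -0.38. Nr5a1 was at 0.0059, and its 2 probes averaged 0.17. Macrophage markers had -0.048 over 7, with 6 of 7 means lower (Cd68 at -0.18, and Cd14 the other way at 0.15). T cell markers had 0.0064 over 7, with 3 of 7 lower (Cd8b1 at -0.19 and Cd2 at 0.64). Several of these values rested on 1 mouse. Cd2 had a signal of 171 in Prss54KO replicate 2 and its difference was 0.095 without that mouse, and Cd68 was at -0.0053 without the same mouse. Without Prss54KO replicate 3, Cd8b1 was at -0.074, Stra8 at -0.071, Uchl1 at -0.019 and Amh at -0.017, and without Prss54KO replicate 1 Fshr was at -0.051. Without WT replicate 3, Cd14 was at 0.010, Amh at 0.021 and Uchl1 at -0.036, and without WT replicate 1 Stra8 was at -0.072. Star varied in size but kept its direction, at -0.37 without WT replicate 3 and -0.84 without WT replicate 2. Over the 18 alternatives it ran from -0.94 to -0.37, with limma's adjusted p at 0.873 or more.

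**Figure D5:**
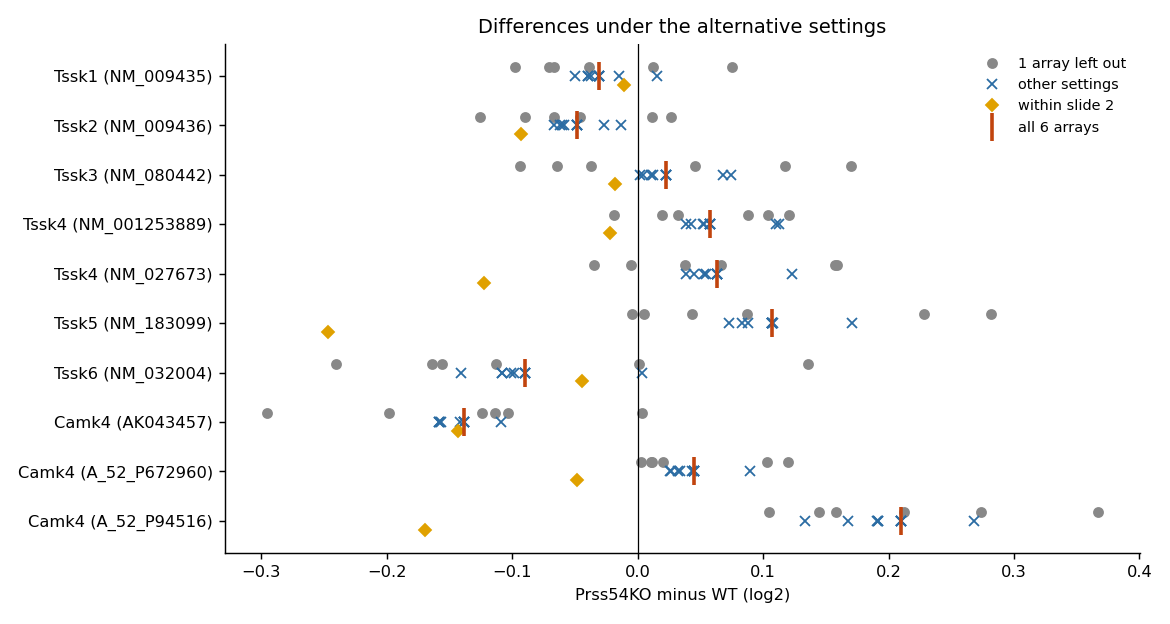
Difference of the 10 probes that were well above background on all arrays, Prss54KO minus WT in log2 units, with all 6 arrays (red bar), with 1 array left out (grey), within slide 2 (yellow) and under the other settings (blue). Points of all 10 probes lie on both sides of 0, and the dim Camk4 probe A_52_P94516 moved most between these, 0.21 with all arrays and -0.17 within slide 2.

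The promoters of the neighbours Tssk1 and Tssk2 were aligned, because these genes lie side by side. The correlation of the 2 genes over the arrays (r = 0.77, rho 0.54) was near the median of the 21 pairs. RefSeq's promoter table (GRCm38.p6), 250 bases before to 50 after the start, held 5 of the 7 genes: Tssk1, Tssk2, Tssk3, Tssk4 and Tssk6. No other pair of promoters was aligned, so how much identity unrelated windows would give was not tested. In the best local alignment of the bases before the start, Tssk1 and Tssk2 had the same base at 82 of 109 aligned positions, with 16 gap positions. Capitals mark these identical bases.
Tssk1 (chr16:17894089-17894201, plus strand): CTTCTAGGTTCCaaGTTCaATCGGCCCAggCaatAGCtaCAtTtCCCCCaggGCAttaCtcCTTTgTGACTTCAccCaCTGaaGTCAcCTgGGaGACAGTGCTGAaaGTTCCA
Tssk2 (chr16:17898502-17898622, plus strand): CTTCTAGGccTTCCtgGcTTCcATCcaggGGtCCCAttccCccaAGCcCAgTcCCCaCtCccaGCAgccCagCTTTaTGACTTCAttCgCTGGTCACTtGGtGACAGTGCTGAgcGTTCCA
Both windows were searched on both strands for the cAMP response element TGACGTCA, for the looser TGACNTCA, which includes it, and for its first letters TGACG. TGACGTCA was in 0 of the 5 promoters and in 1.79% of all 32851 promoters of the table. TGACNTCA was in Tssk1 and Tssk2, both as TGACTTCA starting 48 and 58 bases before the start, and in 8.83% of all promoters; Tssk1 held a further copy on the other strand at 35 bases. TGACG was in Tssk6, 73 bases before the start, and in 20.8% of all promoters. These are matches of letters, and the motifs were chosen after the sequences had been seen.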

How the data were processed

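The authors' deposited scanner files, made with Feature Extraction of Agilent (10.7.3.1 per the file headers, 10.7 per the submitters' processing notes), hold spot intensity on a linear scale after the software's own background treatment, with marks (other values, 0 or 1, per the file headers) for spots well above background, saturated or outlying. The authors' deposited table of log2 values was an alternative; its columns share 1 median of 7.72 and correlated with the log2 signal of their arrays at r of 0.999 or more. Its software is not given in the sources used.

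Levels are log2 processed signals from which the 75th percentile of each array was subtracted. Outlier spots were dropped, spots of a probe averaged, and probes with a value on all arrays and well above background on at least 3 of 6 kept (28912, including all 11 members). limma 3.58.1 in R 4.3.3 (lmFit, eBayes, two-sided) gave differences, SE and 95% intervals, adjusted by Benjamini-Hochberg over all probes kept; the fit was tested on simulated data. Exact permutation tests used all 20 splits. Sequences were aligned with Biopython 1.88. Of 164 list entries, 158 matched by name, 1 through RefSeq and 5 (Brsk1, Zbtb16, Sohlh1, Insl3, Trac) did not match. The genes, gene lists and tests were chosen with earlier results of these data known. From each list the 2 genes with the smallest p are named, since none passed. Genes named for their known link to a kinase were added after their values were seen. So were those named as outside their list's class: Pkdrej, Klk1b24, Stk11, Strada, Stradb, Cab39 and Cab39l. The number of arrays, 3 per genotype, limits precision.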

Additional observations from a re-analysis of the deposited data

How the results depend on the processing

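Under the 18 alternatives (19 for the genes of the 4 lists around the kinases), 0 member probes and 0 genes of these lists passed limma's adjusted threshold. The median difference of the 7 brightest probes ran from -0.067 to 0.12. Over all probes the count was 0 except in 3 settings. They were normexp background correction (1, Prss54), a variance trend and robust fit (2, Prss54 and Cngb1), and the slide as a fixed block. With the slide as a fixed block, the genotype difference comes from slide 2, with 1 WT mouse. Klf1, named after its value was seen, passed there at a difference of 5.63. The count at an unadjusted p under 0.05 was 929 and lay between 579, with WT replicate 1 left out, and 1796, with WT replicate 3 left out. It was 1506 with array weights. With no filter on dim probes it was 1676, but there 41173 probes were tested and not 28912.

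Each of the 11 member probes changed sign under at least 1 alternative. With the slide as a block, as with slide 2 alone, the differences were -0.018 for Tssk3, -0.022 and -0.12 for the Tssk4 probes A_51_P164787 and A_51_P164788, -0.25 for Tssk5, -0.048 and -0.17 for the Camk4 probes A_52_P672960 and A_52_P94516, -0.0041 for Hsp90aa1 and -0.074 for Nuak1. With array weights they were 0.015 for Tssk1 and 0.0036 for Tssk6. With 1 array left out, ranges were -0.098 to 0.075 for Tssk1, -0.45 to 1.76 for its dim probe A_52_P665682, -0.13 to 0.027 for Tssk2, -0.094 to 0.17 for Tssk3, -0.019 to 0.12 and -0.035 to 0.16 for the Tssk4 probes, -0.0045 to 0.28 for Tssk5, -0.24 to 0.14 for Tssk6, -0.30 to 0.0038 for Camk4 A_52_P191278, -0.017 to 0.37 for Amh and -0.18 to 0.027 for Pdpk1. The cause was not tested.

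The labels do not say whether replicate numbers pair the mice. Same-numbered mice correlated at -0.15 to 0.020 in their deviations from the group mean, and the highest correlations were between different numbers. Deviations within a group of 3 sum to 0 and also carry the slides, so these values cannot decide whether mice were paired. With the replicate number as a block, 0 probes were called, 1134 had an unadjusted p under 0.05, and the median member difference was 0.023.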
